A study of Mus musculus with 9 samples.

Results

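The comparison described here is that of normal liver regeneration: the liver remnant of vehicle-treated mice 40 h after 70% partial hepatectomy against the liver removed from vehicle-treated mice at the operation. It comprised 6 of the 9 RNA-Seq libraries, chosen by their labels alone: 3 resection specimens (0 h, the baseline) and 3 remnants, each from a mouse of 12 weeks, C57/BL6 in the labels and a C57BL/6J male in the methods. All 6 received saline vehicle i.p. from 12 h before surgery according to the labels, or from 1 day before according to the methods. None of them received NSC-87877 (NSC), the SHP2 inhibitor given at 7.5 mg/kg per dose to the other 3 mice. The baseline was the excised left lateral and median lobes, whereas the remnant was what the operation left behind, and 40 h is not a whole number of days. Lobe, time of day, the operation and regeneration therefore cannot be told apart in this comparison. The sources do not say whether a specimen and a remnant with the same number came from 1 mouse.

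Regeneration after partial hepatectomy proceeds by division of differentiated cells, chiefly hepatocytes, rather than from stem cells. Hepatocytes leave quiescence under cytokine and growth factor signals, pass through DNA synthesis and divide, and the supporting cells of the sinusoid follow them. Meanwhile the remnant has to carry the metabolic and secretory work of the whole organ. Against that background, the lists of genes described below follow the order of these events.

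RNA-Seq counts the fragments of polyadenylated RNA that fall on each gene, and levels are given as CPM, a gene's count scaled to a fixed library total after TMM scaling between libraries. Between 31187349 and 33943842 reads fell on genes in the baseline libraries and between 27956396 and 42887589 in the remnants. At these depths 3 reads corresponded to 0.07 to 0.107 CPM, a limit that covers counting error only. In whole liver, fewer cells of a type and less RNA per cell cannot be told apart. Gene positions are those of the deposited mouse table, which lists 43346 genes. Of these, 15024 passed the expression filter and were tested with the edgeR quasi-likelihood test. A gene is said to have risen or fallen when its Benjamini-Hochberg adjusted p was under 0.05 and its log2 fold change was over 1.5 in either direction. The libraries of a group differed by far more than sampling noise, so none was a copy of another. The first principal component, with 72.1% of the variance, separated baseline from remnant, and the second, with 10.1%, set baseline replicate 2 apart at -43.7 from the other baselines at 24.8 and 18.2. Of 9658 genes with a mean of at least 5 CPM, 41 lay over 4-fold away from both other livers of the group in baseline replicate 2, against 1 to 6 in each of the other 5 livers. Values without that library are given beside some of the results it touches, but not beside all of them.

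Across the transcriptome, 1085 genes (7.22% of those tested) passed both thresholds, of which 756 rose (5.03%) and 329 fell (2.19%). Without the fold change threshold, 1914 genes were higher (12.7%) and 1650 lower (11%) at an adjusted p under 0.05. The 3 remnants lay above the 3 baselines for 3641 genes (24.2%) and below them for 3310 (22%). The median log2 fold change over all tested genes was 0.01. Rising genes started low, at a median baseline level of 0.478 CPM, and had a median log2 fold change of 2.65. Falling genes had a median baseline level of 5.85 CPM and a median log2 fold change of -1.99. Changes over 3 on the log2 scale were seen in 302 rising genes, and changes under -3 in 46 falling genes. In 76 rising genes no baseline library held more than 3 reads, so that the size of their fold change depends on the fit. Leaving out baseline replicate 2 gave 743 rising and 328 falling genes. The share of protein-coding genes was 88.4% among the genes that changed and 88.3% among all tested.

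**Figure D1:**
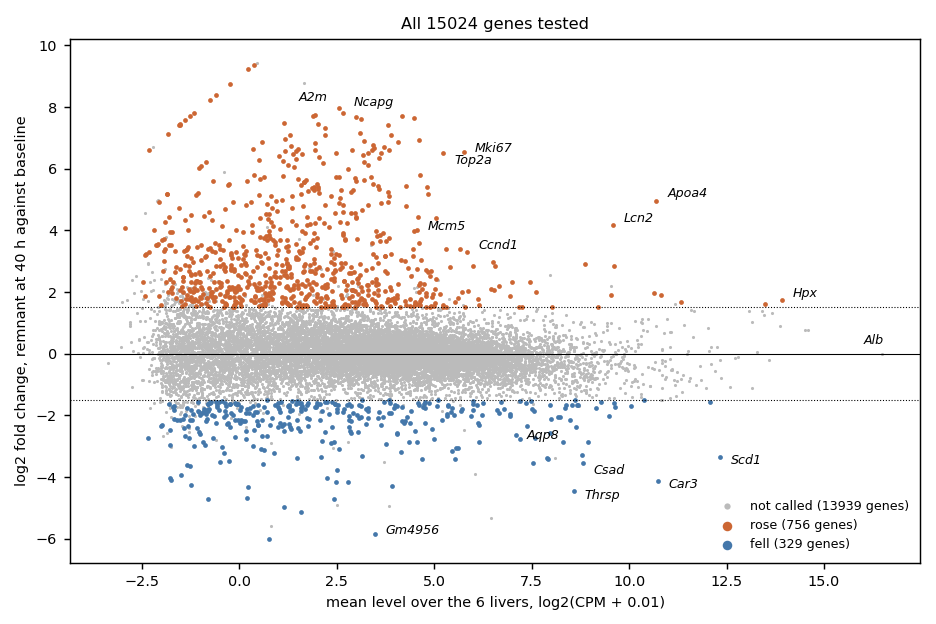
Each point is 1 of the 15024 genes tested, with its mean level over the 6 livers on the x axis (log2 of CPM + 0.01) and its log2 fold change, remnant at 40 h against baseline, on the y axis. The 756 rising genes are orange, the 329 falling genes blue, dotted lines mark log2 fold changes of 1.5 and -1.5, and the straight diagonal of points at the upper left holds genes with no reads at baseline.

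Apart from the cell type markers, the mitotic, recombination, cyclin and replication lists had the highest list medians, and the male-biased, fatty acid synthesis and clock lists the lowest. The list of cell cycle regulators, with a median of 0.99, lay below the acute phase, matrix and fetal lists, among others. Mitotic genes had the highest median log2 fold change, 5.62, followed by homologous recombination and Fanconi anemia genes at 2.54 and cyclins, cyclin-dependent kinases and CDC25 phosphatases at 2.44. Male-biased liver genes and fatty acid synthesis genes had the lowest, both at -1.10. Cytosolic ribosomal proteins, proteasome subunits and sterol synthesis genes held no gene that rose or fell. Several lists lay near or under the 7.22% of all tested genes that rose or fell. Among them were the fatty acid oxidation and pericentral lists (8.82% each), hepatocyte transcription factors (5.41%) and interferon response genes (2.63%). Their counts past both thresholds do not set them apart from other genes. The lists were written from general knowledge with earlier results of these data known, so that their counts and medians are descriptions.

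**Figure D2:**
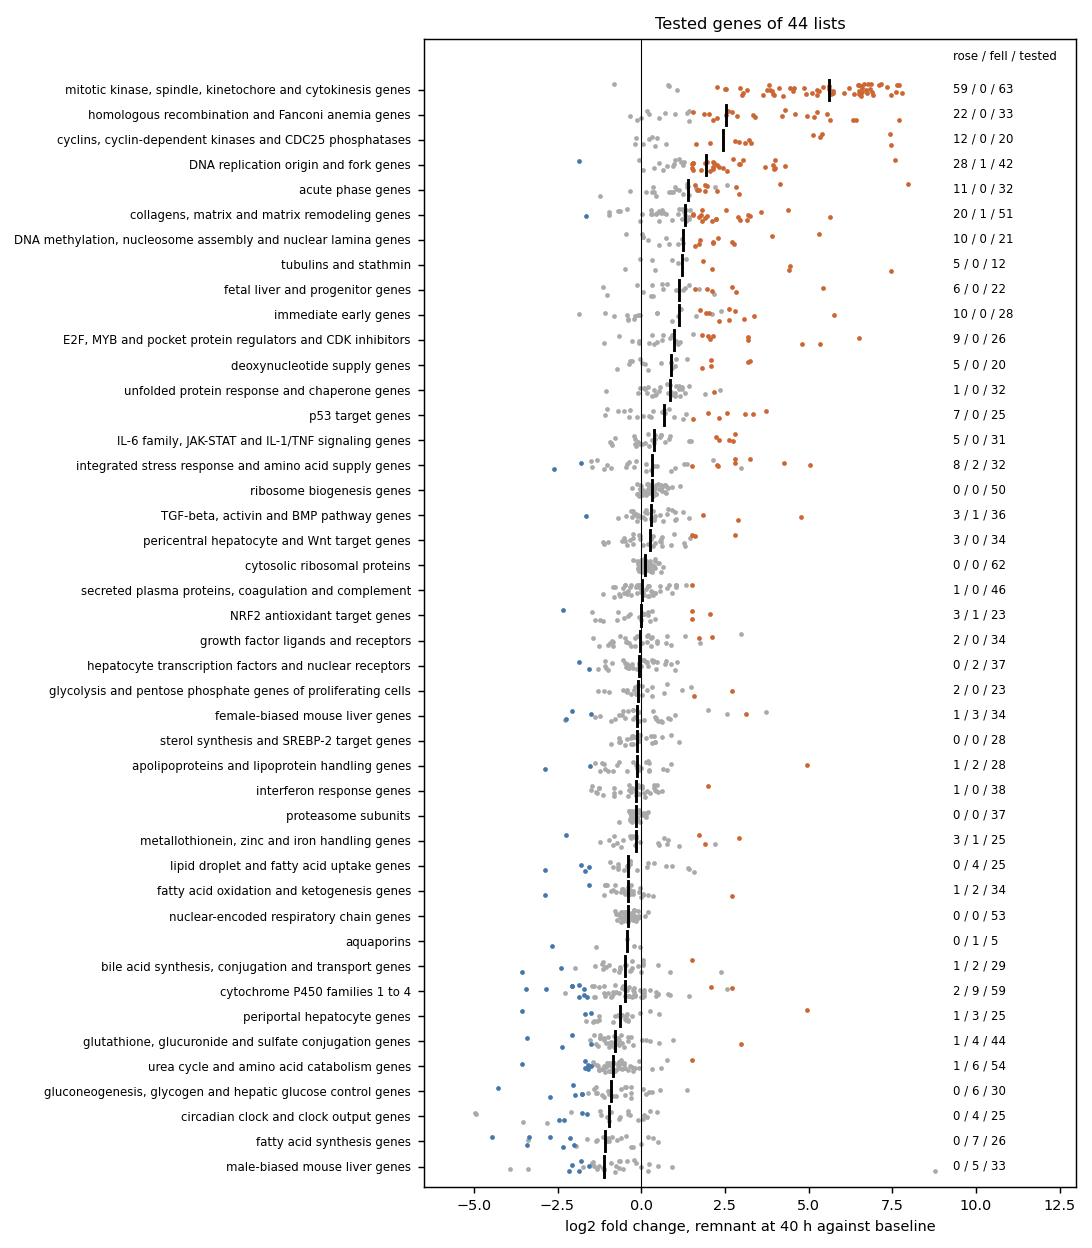
Each row is 1 of 44 gene lists and each point a tested gene of it, with its log2 fold change, remnant at 40 h against baseline, on the x axis. Orange points rose, blue points fell, gray points passed neither call, black bars are list medians, and the numbers at the right count the genes that rose, fell and were tested (59, 0 and 63 for the mitotic list).

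The identity of the tissue was checked first. All 12 hepatocyte markers were measured in every library, at a summed level of 133237 to 138946 CPM at baseline and 121010 to 170306 CPM in the remnants, and none of them rose or fell. *Alb* made up most of that sum. At an adjusted p under 0.05, 2 markers were higher and 3 lower, with log2 fold changes from -1.25 (*Tat*) to 1.37 (*Fgb*) over the list. *Alb*, which encodes the main plasma protein made by hepatocytes, had a log2 fold change of -0.02 (standard error 0.202), and the hepatocyte transcription factor gene *Hnf4a* one of 0.06 (standard error 0.187). The values of the baselines and remnants overlapped for both genes. The urea cycle gene *Cps1* was at 5864, 5826 and 5301 CPM at baseline and 3174, 4917 and 3370 CPM in the remnants, without overlap, at an adjusted p of 0.0783.

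Genes of the G1 phase and of entry into S phase rose. *Ccnd1*, which encodes cyclin D1, the cyclin that commits hepatocytes to division, was at 7.74, 15.3 and 9.11 CPM at baseline and 175, 72.1 and 67.4 CPM in the remnants (log2 fold change 3.29, standard error 0.475, adjusted p = 0.0022). Remnant replicate 1 held the highest level, and all remnants lay above all baselines. *Ccne1* and *Ccne2*, which encode the E cyclins of the G1/S transition, had log2 fold changes of 3.22 and 2.92. The phosphatase gene *Cdc25a*, whose product activates cyclin-dependent kinases, rose by 1.63, and *Pkmyt1*, which encodes a kinase that inhibits CDK1, by 2.81. Of the 20 tested genes of this list, 12 rose and 0 fell.

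Regulators of this transition moved in part. *E2f1*, a transcription factor gene of S phase entry, was at 5.15, 4.92 and 6.8 CPM at baseline and 12.7, 15 and 9.78 CPM in the remnants, a log2 fold change of 1.16 that was under the fold change threshold at an adjusted p of 0.00292. The atypical repressor gene *E2f7* rose by 3.18, the pocket protein gene *Rbl1* by 3.20, and *Mybl1*, which encodes A-MYB, by 4.81 on the log2 scale. *Mybl1* was between 0.411 and 0.458 CPM in the baselines and between 7.62 and 15.9 CPM in the remnants. The cyclin-dependent kinase inhibitor gene *Cdkn1a* (p21) was at 35.7, 6.54 and 20.4 CPM at baseline and 100.3, 90.9 and 59.7 CPM in the remnants (log2 fold change 2.00, standard error 0.527, adjusted p = 0.0295), and its adjusted p was 0.0652 to 0.0942 without baseline replicate 3 or remnant replicates 1 or 2. Of 26 tested E2F, MYB and pocket protein regulators and CDK inhibitors, 9 rose and 0 fell, with a median log2 fold change of 0.99.

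Most DNA replication genes rose, with a median log2 fold change of 1.94. Of 42 tested genes of origins and forks, 28 rose, and the list as a whole took 0.0245% ± 0.00239 of all counts at baseline and 0.0554% ± 0.0031 in the remnants (SD, n = 3 each). *Mcm5* and *Mcm6*, which encode subunits of the MCM2-7 replicative helicase, had log2 fold changes of 3.999 (standard error 0.224) and 3.03 (standard error 0.183), each at an adjusted p of 3.22e-06. The other helicase subunit gene named here, *Mcm2*, was at 3.38, 3.57 and 5.15 CPM at baseline and 19.95, 20.9 and 17.4 CPM in the remnants. *Gins2*, which encodes a partner of that helicase at the fork, rose by 4.28, and *Lig1*, the gene of the ligase that joins Okazaki fragments, by 2.44 on the log2 scale. *Pcna*, the gene of the sliding clamp, was at 19.4, 19.9 and 18.4 CPM at baseline and 39.5, 44.5 and 47.1 CPM in the remnants. Its log2 fold change of 1.18 was under the fold change threshold, with an adjusted p of 0.000111 and no overlap between the groups.

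*Mcm10*, which encodes an initiation factor that acts with the helicase, went the other way. It was at 64.5, 107 and 68.3 CPM at baseline and 18.5, 20.01 and 27.9 CPM in the remnants (log2 fold change -1.86, standard error 0.322, adjusted p = 0.00316). It was the only tested gene of the replication list to fall, every remnant lay below every baseline, and the fall held in each of the 6 fits that left out 1 liver. No other gene of the deposited table overlaps it at chromosome 2, 4989714 to 5012791.

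Deoxynucleotide supply genes followed replication in direction. *Rrm1* and *Rrm2*, which encode both subunits of ribonucleotide reductase, had log2 fold changes of 2.10 and 3.18, and *Tyms*, the gene of thymidylate synthase, one of 1.80. *Dctd*, the gene of deoxycytidylate deaminase, rose by 2.07. *Rrm2* was at 2.5, 8.49 and 2.11 CPM at baseline and 34.8, 46.4 and 37.7 CPM in the remnants. Baseline replicate 2 held the highest of the 3 baseline values and still lay below every remnant. *Mthfd2*, the gene of a mitochondrial folate enzyme, rose by 3.25. Of 20 genes of the list, 5 rose, and 11 were higher at an adjusted p under 0.05.

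The most pronounced rise was that of genes for G2 phase and mitosis, of which 59 of 63 tested rose. Their summed share was 0.0106% ± 0.000246 of all counts at baseline and 0.127% ± 0.0196 in the remnants (SD, n = 3 each). *Mki67*, the gene of the proliferation antigen Ki67, was at 1.14, 1.37 and 0.891 CPM at baseline and 112, 121 and 87.5 CPM in the remnants (log2 fold change 6.55, standard error 0.541, adjusted p = 0.00014). *Top2a*, which encodes the topoisomerase that untangles sister chromatids, was at 1.14, 0.58 and 0.726 CPM and 78.8, 79.8 and 64.5 CPM in the same order. Each remnant exceeded each baseline by a wide margin, and the 3 remnants lay close together.

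Cyclins and kinases of this phase showed the same separation. *Cdk1*, the gene of the mitotic kinase, was at 1.42, 1.22 and 1.19 CPM at baseline and 58.1, 56.8 and 48.8 CPM in the remnants, a log2 fold change of 5.41 (standard error 0.782). Its partners *Ccna2* (cyclin A2) and *Ccnb1* (cyclin B1) rose by 5.13 and 7.42. *Ccnb1* rested on 15 reads over the 3 baselines and on 2962 over the 3 remnants. *Foxm1*, which encodes the transcription factor of the G2/M program, was at 0.316, 0.0611 and 0.429 CPM at baseline and 24.5, 32.1 and 16.5 CPM in the remnants (log2 fold change 6.503, standard error 0.861, adjusted p = 0.00202).

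*Ncapg*, which encodes a condensin subunit, had the highest log2 fold change of the list, 7.79, on 5 reads over the baselines and 1320 over the remnants. *Prc1*, the gene of a protein that bundles the central spindle, was at 0.158, 0.336 and 0.165 CPM at baseline and 49.98, 45.4 and 38.3 CPM in the remnants, a log2 fold change of 7.63 (standard error 0.973). *Hmmr*, which encodes a spindle-associated hyaluronan receptor, rose by 7.70, the mitotic kinase gene *Pbk* by 7.62, the kinesin gene *Kif18b* by 7.45, and *Sgol1*, which encodes the shugoshin that protects centromeric cohesion, by 6.58. *Smc2*, which encodes a core condensin subunit, was higher at baseline, at 1.99, 1.99 and 2.01 CPM, and reached 23.7, 24.7 and 27.1 CPM. *Dlgap5*, *Prr11* and *Pif1*, 3 further genes among the 10 with the largest rise, had log2 fold changes of 7.68, 7.70 and 7.74 on 7, 3 and 3 baseline reads. The adjusted p of *Pif1* was 0.0505 to 0.0611 without baseline replicates 1 or 2.

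A single gene of the mitotic list was lower at an adjusted p under 0.05. *Pttg1*, named after its values were seen, encodes securin and was at 29.8, 29.1 and 29.9 CPM at baseline and 15.2, 17.1 and 18.01 CPM in the remnants (log2 fold change -0.82, adjusted p = 0.015), a change under the fold threshold. In 5 genes of the list no baseline library held more than 3 reads, and setting these at the bound given by 3 reads per library left the median at 5.62. With the requirement of at least 10 reads in every library, which removes genes silent at baseline, 24 mitotic genes remained tested and rising.

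**Figure D3:**
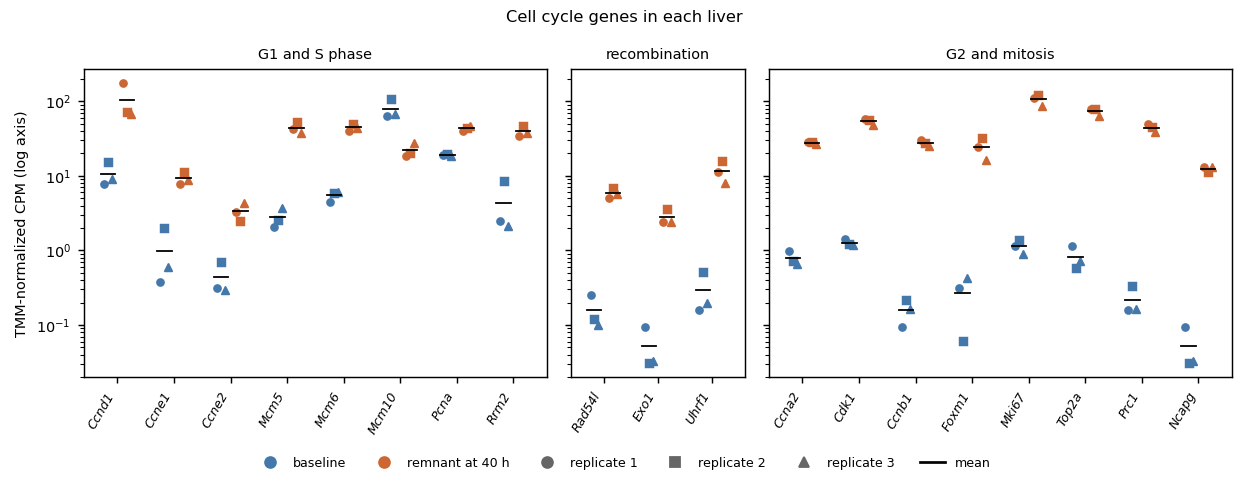
The y axis gives the TMM-normalized CPM (log axis) of 19 cell cycle genes in each of the 3 baselines (blue) and 3 remnants (orange), with a marker shape for each replicate number and black bars for means. Every gene shown except *Mcm10* lies higher in the 3 remnants, with *Mki67* between 87.5 and 121 CPM there.

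The promoters of these genes, which the comparison did not use, were searched for letters known from cell cycle genes. In RefSeq promoters of GRCm38.p6, taken from 250 bases before to 50 after the start, 10314 of the 15024 tested genes were matched by symbol. The cell cycle genes homology region (CHR, letters TTTGAA, searched on both strands), an element known from late cell cycle genes, was present in 12.2% of all matched promoters. It was found in 22.8% of those of rising genes, in 14.5% of those of falling genes, and in 38 of 53 promoters (71.7%) of the mitotic list, and also in 34.8% of those of the cytochrome P450 list. The CCAAT letters, on both strands, were in 38.9% of all promoters and 69.8% of those of the mitotic list, but also in 85% of those of the sterol synthesis list, which held no called gene, and in 65% of those of the clock list. E2F letters (TTTCGCGC, TTTGGCGC or TTTCCCGC, both strands, where matches can overlap) were in 3.42% of all promoters, 7.78% of those of rising genes, 1.36% of those of falling genes and 12 of 32 (37.5%) of those of the replication list. The share of promoters with the CHR letters in the shorter window from 150 bases before the start was 6.87% of all, 69.8% of the mitotic list and 10.9% of the cytochrome P450 list. A match is a description of letters and not a bound site.

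The promoters of the called mitotic and replication genes with the smallest adjusted p among those that hold these letters are shown, 5′ to 3′ on the strand of the gene. Every match lies near the start because only that window was searched. Capitals mark the CHR letters in *Smc2* (chr4:52438971-52439270, plus strand) and *Kif15* (chr9:122950831-122951130, plus strand), and the E2F letters in *Mcm5* (chr8:75109259-75109558, plus strand) and *Mcm6* (chr1:128359656-128359955, minus strand).
Smc2: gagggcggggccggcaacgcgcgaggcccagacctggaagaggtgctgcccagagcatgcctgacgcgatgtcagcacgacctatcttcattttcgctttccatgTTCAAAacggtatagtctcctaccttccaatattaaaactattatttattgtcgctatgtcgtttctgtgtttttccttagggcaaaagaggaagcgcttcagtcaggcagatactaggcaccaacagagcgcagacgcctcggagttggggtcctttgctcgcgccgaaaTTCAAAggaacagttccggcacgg
Kif15: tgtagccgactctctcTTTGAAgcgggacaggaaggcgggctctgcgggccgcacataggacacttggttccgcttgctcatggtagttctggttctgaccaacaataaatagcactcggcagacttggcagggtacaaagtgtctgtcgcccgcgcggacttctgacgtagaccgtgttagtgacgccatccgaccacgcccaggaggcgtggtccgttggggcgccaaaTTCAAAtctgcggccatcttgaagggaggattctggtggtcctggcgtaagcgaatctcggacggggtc
Mcm5: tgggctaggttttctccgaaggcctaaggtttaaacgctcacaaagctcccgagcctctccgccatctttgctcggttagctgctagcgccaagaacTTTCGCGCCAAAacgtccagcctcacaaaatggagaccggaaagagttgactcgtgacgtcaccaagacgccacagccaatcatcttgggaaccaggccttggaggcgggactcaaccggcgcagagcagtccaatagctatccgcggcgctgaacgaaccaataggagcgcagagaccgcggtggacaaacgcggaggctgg
Mcm6: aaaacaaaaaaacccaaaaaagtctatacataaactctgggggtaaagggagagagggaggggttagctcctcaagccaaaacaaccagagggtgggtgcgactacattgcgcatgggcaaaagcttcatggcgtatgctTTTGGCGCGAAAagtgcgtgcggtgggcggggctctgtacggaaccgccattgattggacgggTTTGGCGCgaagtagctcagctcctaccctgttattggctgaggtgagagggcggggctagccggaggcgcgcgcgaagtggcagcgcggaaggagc
*Kif15*, which encodes a spindle kinesin, was at 0.126, 0.0916 and 0.198 CPM at baseline and 4.96, 5.49 and 4.25 CPM in the remnants, and its 2 CHR matches begin 234 and 19 bases before the start. In *Mcm5* a pair of overlapping E2F matches begins 153 and 149 bases before the start, and the promoter of *Mcm6* holds 3 matches, beginning at 110, 106 and 47 bases before it. *Mcm5* was at 2.05, 2.6 and 3.7 CPM in the baselines and 42.99, 52.7 and 37.7 CPM in the remnants, and *Mcm6* at 4.42, 5.92 and 6.07 CPM and 40.5, 49.7 and 43.9 CPM. Neither gene had a remnant value near its baseline values.

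Genes that repair and repackage replicated DNA rose with them. Of 33 genes of the homologous recombination and Fanconi anemia list, 22 rose and 0 fell. The list also holds the spindle gene *Hmmr*, counted above with the mitotic genes, among those that rose. *Rad54l*, the gene of a recombination motor protein, was at 0.253, 0.122 and 0.099 CPM at baseline and 5.06, 6.87 and 5.65 CPM in the remnants (log2 fold change 5.18, standard error 0.368, adjusted p = 1.15e-05). The recombination factor gene *Rad51ap1* rose by 6.31, the end-resection nuclease gene *Exo1* by 5.65, and *Eme1*, which encodes a subunit of a junction-cleaving endonuclease, by 6.42 on the log2 scale. *Rad51ap1*, *Exo1* and *Eme1* rested on 6, 5 and 4 baseline reads. Among chromatin genes, of which 10 of 21 rose, *Uhrf1*, which guides maintenance DNA methylation to new strands, was at 0.158, 0.519 and 0.198 CPM at baseline and 11.5, 15.8 and 8.08 CPM in the remnants. The nucleosome remodeler gene *Hells* rose by 2.70 and the ATPase gene *Atad2* by 2.78.

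Tubulins and a regulator of microtubules rose as well. *Tubb6* and *Tubb5*, which encode beta tubulins, rose by 4.41 and 1.86, and *Stmn1*, the gene of the microtubule-destabilizing stathmin, was at 2.24, 1.5 and 2.57 CPM at baseline and 42.4, 53.98 and 41.1 CPM in the remnants (log2 fold change 4.45, standard error 0.579, adjusted p = 0.00162). Of 12 genes of this list 5 rose, the others being the alpha tubulin gene *Tuba1b* and *Tubb3*, which had no baseline reads. Among p53 targets, 7 of 25 rose and none fell. *Eda2r* and *Tnfrsf10b*, which encode receptors of the TNF receptor family, rose by 3.35 and 3.11, and *Phlda3*, the gene of an AKT repressor, by 2.55. *Eda2r* lay between 0.214 and 0.253 CPM in the baselines and between 2.03 and 2.81 CPM in the remnants. *Cdkn1a*, described above, also belongs to this list.

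Immediate early genes, the first to respond to growth signals, were raised in part at 40 h. Times between 0 and 40 h were not sampled. *Egr2*, which encodes a zinc finger factor, was at 0.0632, 0 and 0.165 CPM at baseline and 4.43, 4.67 and 3.54 CPM in the remnants (log2 fold change 5.75, standard error 0.552, adjusted p = 6.44e-05), on 7 baseline reads. *Fos*, the gene of an AP-1 subunit, was at 16.7, 6.05 and 3.63 CPM at baseline and 109, 91.6 and 74.1 CPM in the remnants (log2 fold change 3.38, standard error 0.616, adjusted p = 0.00734). Baseline replicate 1 held the highest baseline level of *Fos* and lay below every remnant. The feedback gene *Socs3*, which restrains IL-6 signaling, rose by 2.81, and *Ier5* by 2.62. Other members of the class did not rise. *Jun* overlapped between the groups at 109, 41.1 and 64.6 CPM and 92.5, 71.2 and 19.8 CPM, and *Myc*, a growth regulator induced early after hepatectomy, was lower at 16.5, 9.83 and 12.1 CPM against 8.18, 6.25 and 3.51 CPM (log2 fold change -1.09, adjusted p = 0.0269). The adjusted p of *Myc* was 0.0621 to 0.109 without baseline replicates 1 or 3 or remnant replicates 2 or 3. Of 28 tested immediate early genes, 10 rose, 12 were higher and 1 lower at an adjusted p under 0.05. The log2 fold change was positive in 18 of them and negative in 10.

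Growth factor and receptor genes were called about as often as all genes. *Hgf*, which encodes hepatocyte growth factor, a mitogen made by nonparenchymal cells, was at 4.77, 3.76 and 4.19 CPM at baseline and 14.4, 12.5 and 15.4 CPM in the remnants (log2 fold change 1.73, standard error 0.293, adjusted p = 0.00185). Its receptor gene *Met* overlapped between the groups, with a log2 fold change of -0.17. *Egfr*, the gene of the EGF receptor, was at 419, 619 and 399 CPM and 685, 1026 and 978 CPM, without overlap and under the fold threshold (log2 fold change 0.90, adjusted p = 0.0429). Its adjusted p was 0.12 to 0.143 without baseline replicates 1 or 3 or remnant replicates 2 or 3. *Igf2*, a fetal growth factor gene, rose by 2.12 at no more than 2.83 CPM, with an adjusted p of 0.0315 that was 0.0935 to 0.175 without baseline replicates 1 or 2 or remnant replicate 2. *Igf1*, *Igfbp1* and *Fgf21*, which encode the circulating growth factor, its binding protein and a fasting hormone, had log2 fold changes of -0.12, 0.31 and 2.98 and overlapped between the groups. *Fgf21* was at 10.8, 0.57 and 0.775 CPM in the remnants, so that 1 liver set its mean. Of 34 tested ligands and receptors, 2 rose (5.88%) and 0 fell, against 5.03% of all tested genes that rose, a count of rising genes that was 1 without baseline replicates 1 or 2 or remnant replicate 2.

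In the TGF-beta, activin and BMP pathways, *Inhbb*, which encodes the activin B subunit, was at 0.979, 1.01 and 0.792 CPM at baseline and 3.23, 4.74 and 1.92 CPM in the remnants (log2 fold change 1.83, standard error 0.377, adjusted p = 0.0048), whereas *Inhba*, which encodes that of activin A, overlapped between the groups at a log2 fold change of 0.81. The matrix protein gene *Thbs1*, whose product activates latent TGF-beta, rose by 2.88, and its adjusted p was 0.0557 to 0.0831 without baseline replicates 1, 2 or 3 or remnant replicates 1 or 2. *Bmp6*, which encodes the sinusoidal signal for hepcidin, fell by 1.66 on the log2 scale, from 3.48, 3.6 and 3.96 CPM to 1.08, 1.14 and 1.29 CPM. In the cytokine list, *Tnfrsf12a*, the gene of the TWEAK receptor, was at 7.42, 4.98 and 5.91 CPM at baseline and 46.7, 39.7 and 36.6 CPM in the remnants and *Il1rn*, that of the IL-1 receptor antagonist, rose by 2.63. *Il6ra*, the IL-6 receptor gene, had a log2 fold change of -0.15 with overlapping groups. Of 36 tested TGF-beta family genes 3 rose and 1 fell (11.1% in either direction, against 7.22% of all tested genes). Of 31 cytokine genes 5 rose, *Tnfaip3*, *Osmr* and *Socs3* being the others, and none fell.

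Of the genes on which the study centered, *Ptpn11*, *Yap1* and *Wwtr1* did not pass the test at the RNA level. *Ptpn11*, which encodes SHP2, was at 82.8, 70.1 and 80.4 CPM at baseline and 85.4, 94.5 and 86.8 CPM in the remnants (log2 fold change 0.19, adjusted p = 0.335). *Yap1*, the gene of the Hippo pathway effector YAP, changed by 0.28 ± 0.132 (log2 fold change and its standard error) at an adjusted p of 0.143, with the remnants above the baselines. Its paralog gene *Wwtr1* (TAZ) had a log2 fold change of 0.34 (standard error 0.179), and its groups overlapped. *Nr4a1* and *Ctgf*, which the study also followed, were tested but are not described here.

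Acute phase proteins are secreted by hepatocytes under inflammatory cytokines. Their genes together took 6.21% ± 1.02 of all counts at baseline and 15.4% ± 1.77 in the remnants (SD, n = 3 each). *Lcn2*, the gene of the iron-siderophore binder lipocalin 2, was at 20.3, 197 and 27.1 CPM at baseline and 1395, 1369 and 1597 CPM in the remnants (log2 fold change 4.16, standard error 0.928, adjusted p = 0.0172). Baseline replicate 2 was far above the other baselines for this gene and still lay below every remnant. Without that library the log2 fold change of *Lcn2* was 5.94. *Hpx*, the gene of the heme carrier hemopexin, was at 5669, 9479 and 6358 CPM at baseline and 16920, 27290 and 27040 CPM in the remnants, *Apcs*, that of serum amyloid P, rose by 2.83, *Fgl1* by 1.97 and the metalloreductase gene *Steap4* by 2.91 on the log2 scale. *A2m*, which encodes alpha-2-macroglobulin, had 4 reads over the 3 baselines, all in replicate 3, and reached 8.91, 19.02 and 6.9 CPM.

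The classical acute phase gene *Saa1* did not pass the test with all 6 livers. It was at 899.5, 3744 and 831 CPM at baseline and 2765, 4712 and 6672 CPM in the remnants (log2 fold change 1.37, adjusted p = 0.149), and without baseline replicate 2 its log2 fold change was 2.45 at an adjusted p of 0.00199. Of 32 tested genes of the list, 11 rose and 0 fell, and the number that rose was 17 without baseline replicate 2. *Hamp*, which encodes hepcidin, the hormone of iron balance, had a log2 fold change of -1.22 with overlapping groups, 245, 1161 and 409 CPM against 273, 146 and 362 CPM. The related *Hamp2* fell by 2.25 (adjusted p = 0.00478). The metallothionein gene *Mt1* rose by 1.90 with an adjusted p of 0.0428 that was 0.0735 to 0.128 without baseline replicates 1 or 3 or remnant replicates 1, 2 or 3. Without baseline replicate 2 the log2 fold changes of *Hamp* and *Mt1* were -0.33 and 2.72. The transferrin receptor gene *Tfrc* had a log2 fold change of -0.05. In the list of metal handling genes, which shares *Hpx*, *Mt1* and *Steap4* with the acute phase list, those 3 of 25 rose and *Hamp2* fell.

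Among 46 other secreted plasma proteins, *Serpina10*, the gene of the protein Z-dependent protease inhibitor, was the only one to rise (log2 fold change 1.52), none fell, and the median was 0.02. It passed the fold threshold narrowly, and no gene of this list rose without baseline replicate 1 or remnant replicate 3. In the apolipoprotein list *Apoa4*, an apolipoprotein gene that responds to lipid load, was at 91.1, 133 and 86.6 CPM at baseline and 5733, 1609 and 2345 CPM in the remnants (log2 fold change 4.97, standard error 0.875, adjusted p = 0.00642). It reached its highest level in remnant replicate 1. *Pltp*, the gene of the phospholipid transfer protein, fell by 2.88, and the sterol exporter gene *Abcg8* by 1.54 on the log2 scale. The adjusted p of *Abcg8* was 0.057 without remnant replicate 1. The list counts were 1 rising and 2 falling of 28, and the number falling was 1 without baseline replicate 2 or remnant replicates 1 or 3.

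Part of the fatty acid synthesis genes fell, and the list took 1.65% ± 0.601 of all counts at baseline and 0.4% ± 0.103 in the remnants (SD, n = 3 each). *Scd1*, the gene of the desaturase that makes oleate, was at 7196, 13320 and 7538 CPM at baseline and 511, 1639 and 595 CPM in the remnants (log2 fold change -3.35, standard error 0.537, adjusted p = 0.00256). Every remnant lay below every baseline, and baseline replicate 2 held the highest level. *Thrsp*, which encodes the lipogenic protein Spot 14, was at 224, 1783 and 199 CPM at baseline and 14.9, 57.6 and 27.6 CPM in the remnants, and its adjusted p of 0.025 was 0.0723 to 0.0933 without remnant replicates 1 or 3. The malic enzyme gene *Me1*, a source of NADPH, fell by 2.33 and *Pklr*, the gene of liver pyruvate kinase, by 2.73 on the log2 scale. *Fasn* and *Srebf1*, which encode fatty acid synthase and the transcription factor SREBP-1, had log2 fold changes of -1.34 and -1.62 at adjusted p of 0.095 and 0.0984. The values of *Fasn* overlapped, with 337, 1298 and 535 CPM at baseline and 196, 456 and 202 CPM in the remnants. Of 26 tested genes, 7 fell and 0 rose, 12 were lower at an adjusted p under 0.05, and the number that fell was 3 without remnant replicate 3 and 4 without remnant replicate 1. Without baseline replicate 2 it was 5, and the log2 fold changes of *Thrsp*, *Pklr* and *Fasn* were -2.66, -1.78 and -0.61.

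Genes of lipid droplets and fatty acid use moved less. *Plin4*, the gene of a droplet coat protein, fell by 2.86 and *Fitm1*, which encodes a droplet-forming protein, by 1.68 on the log2 scale, along with *Vldlr* and *Mogat1*. The main hepatocyte droplet coat gene *Plin2* had a log2 fold change of 0.18 with overlapping groups, and *Cidec*, whose product fuses droplets, one of -0.38. In the oxidation list, *Acaa1b*, the gene of a peroxisomal thiolase, was at 864, 784 and 969 CPM at baseline and 136, 136 and 85.2 CPM in the remnants (log2 fold change -2.87, standard error 0.255, adjusted p = 4.12e-05), and *Acsl1*, that of an acyl-CoA synthetase, fell by 1.55. *Cpt1a*, which encodes the gatekeeper of mitochondrial oxidation, had a log2 fold change of -0.33 and overlapped between the groups. Its regulator gene *Ppara* was at 55.4, 119 and 67.7 CPM and 41.7, 41.02 and 32.3 CPM (log2 fold change -1.07, adjusted p = 0.0481), and its adjusted p was 0.0728 to 0.147 without baseline replicates 2 or 3 or remnant replicates 1, 2 or 3. The lipid droplet list had 4 falling and 0 rising genes of 25, and the falling ones numbered 2 without baseline replicates 1 or 3 or remnant replicates 2 or 3. The oxidation list had 2 falling (1 without baseline replicate 1 or remnant replicate 3) and 1 rising of 34, the riser being *Cyp4a31*, which no longer passed with any 1 baseline left out or without remnant replicates 1 or 2.

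Sterol synthesis genes showed no common shift. None of 28 rose or fell by edgeR's test, 2 were higher and 1 lower at an adjusted p under 0.05, and the median log2 fold change was -0.13. *Sqle*, the gene of squalene epoxidase, was at 74.6, 127 and 85.3 CPM at baseline and 136, 155 and 152 CPM in the remnants (log2 fold change 0.63, adjusted p = 0.064). Its groups did not overlap, and baseline replicate 2 held the highest baseline level.

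Genes that clear and synthesize bile acids fell in small number. *Cyp8b1*, which encodes the sterol 12-alpha-hydroxylase of bile acid synthesis, was at 703, 404 and 888 CPM at baseline and 87.5, 130.3 and 164 CPM in the remnants (log2 fold change -2.39, standard error 0.432, adjusted p = 0.00453). *Cyp7a1*, the gene of the rate-limiting enzyme, was at 103, 249 and 238 CPM and 17.3, 41.5 and 92.2 CPM, without overlap, with a log2 fold change of -1.97 at an adjusted p of 0.0687. *Cyp46a1*, which encodes a cholesterol 24-hydroxylase, fell by 3.57. The bile salt export pump gene *Abcb11* overlapped between the groups at a log2 fold change of -0.27, and the bile acid uptake gene *Slc10a2* rose by 1.51. Of 29 genes 2 fell and 1 rose, with no gene rising without baseline replicates 1 or 3 or remnant replicates 2 or 3, and 11 were lower at an adjusted p under 0.05.

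Cytochrome P450 enzymes oxidize drugs, fatty acids and steroids. Of 59 P450 genes of families 1 to 4, 9 fell and 2 rose, and 43 had a negative log2 fold change. *Cyp4a12a*, a male-biased fatty acid hydroxylase gene, was at 346, 205 and 338 CPM at baseline and 85.01, 58.6 and 101 CPM in the remnants (log2 fold change -1.86, standard error 0.246, adjusted p = 0.000429). *Cyp4b1* and *Cyp2j9* fell by 2.07 and 1.86. The ethanol-oxidizing *Cyp2e1* was lower in every remnant, at 1788, 2665 and 2273 CPM against 4151, 5494 and 3828 CPM at baseline, a log2 fold change of -1.002 under the fold threshold (adjusted p = 0.00509). The dioxin-inducible *Cyp1a2* had a log2 fold change of -1.12 (adjusted p = 0.274), and the abundant *Cyp3a11*, which oxidizes many drugs, overlapped between the groups at -0.20. *Cyp1b1*, an extrahepatic P450 gene, rose by 2.08 to no more than 1.73 CPM. The other riser was *Cyp4a31*, so that the number rising was 1 without baseline replicates 1, 2 or 3 or remnant replicates 1 or 2. The *Cyp2a*, *Cyp2b*, *Cyp2d* and *Cyp4a* genes have close paralogs between which reads can be split.

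Conjugation enzymes had 25 of 44 genes lower at an adjusted p under 0.05 and a median log2 fold change of -0.78, yet only 4 fell past the fold threshold. *Sult1c2*, a sulfotransferase gene, fell by 2.38, and *Ugt2b1*, a glucuronosyltransferase gene, by 2.05. The estrogen sulfotransferase gene *Sult1e1* was the only riser, and it did not pass with any 1 liver left out. The glutathione transferase gene *Gsta2* was at 67.1, 23.6 and 50.4 CPM at baseline and 5.78, 3.03 and 4.54 CPM in the remnants, and its adjusted p of 0.0186 was 0.0525 to 0.061 without baseline replicates 1 or 3 or remnant replicates 1, 2 or 3. *Gstm1* fell by 1.504 (adjusted p = 0.0361, and 0.0592 to 0.114 without baseline replicates 1, 2 or 3 or remnant replicates 1, 2 or 3). Falling conjugation genes numbered 1 without baseline replicates 1 or 3 or remnant replicates 1 or 2 and 2 without baseline replicate 2 or remnant replicate 3.

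Of 54 tested urea cycle and amino acid genes, 50 had a negative log2 fold change and 38 were lower at an adjusted p under 0.05, while 6 fell past the fold threshold. The list took 5% ± 0.109 of all counts at baseline and 2.88% ± 0.186 in the remnants (SD, n = 3 each). *Csad*, the gene of the taurine-forming decarboxylase, was at 892, 566 and 1022 CPM at baseline and 62.9, 102 and 45.7 CPM in the remnants (log2 fold change -3.55, standard error 0.376, adjusted p = 0.00022). *Tdo2*, which encodes tryptophan dioxygenase, was at 1776, 1584 and 1493 CPM and 419, 521 and 574 CPM. *Asl*, a urea cycle gene, fell by 1.59, and the histidine and serine degradation genes *Hal* and *Sds* by 1.51 and 1.67. The adjusted p of *Sds* was 0.0544 to 0.0751 without baseline replicates 1 or 2 or remnant replicates 1 or 3. Falling genes numbered 3 without remnant replicates 1 or 3. *Acmsd*, which diverts tryptophan from NAD synthesis, was the only riser (log2 fold change 1.53, adjusted p = 0.0157, and 0.0592 to 0.0594 without baseline replicates 1 or 2), and its log2 fold change without remnant replicate 3 was 1.11, under the fold threshold. The glutamine synthetase gene *Glul* had a log2 fold change of -0.06.

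Genes of hepatic glucose handling fell in part. *G6pc*, the gene of the last step of glucose release, was at 1615, 668 and 1171 CPM at baseline and 336, 271 and 237 CPM in the remnants (log2 fold change -2.03, standard error 0.301, adjusted p = 0.000909). *Pck1*, which encodes the entry enzyme of gluconeogenesis, was lower by 0.84 on the log2 scale, under the fold threshold (adjusted p = 0.0307, and 0.0542 to 0.11 without baseline replicates 1, 2 or 3 or remnant replicate 3). *Ppp1r3g* and *Ppp1r3b*, which encode glycogen-targeting phosphatase subunits, fell by 4.29 and 1.78, and the fructokinase gene *Khk* by 1.77. Of 30 genes, 6 fell, none rose, and 17 were lower at an adjusted p under 0.05. Among 23 glycolysis and pentose phosphate genes the lactate transporter genes *Slc16a1* and *Slc16a3* rose, by 1.59 and 2.70, and none fell. The number rising was 1 without remnant replicate 1.

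**Figure D4:**
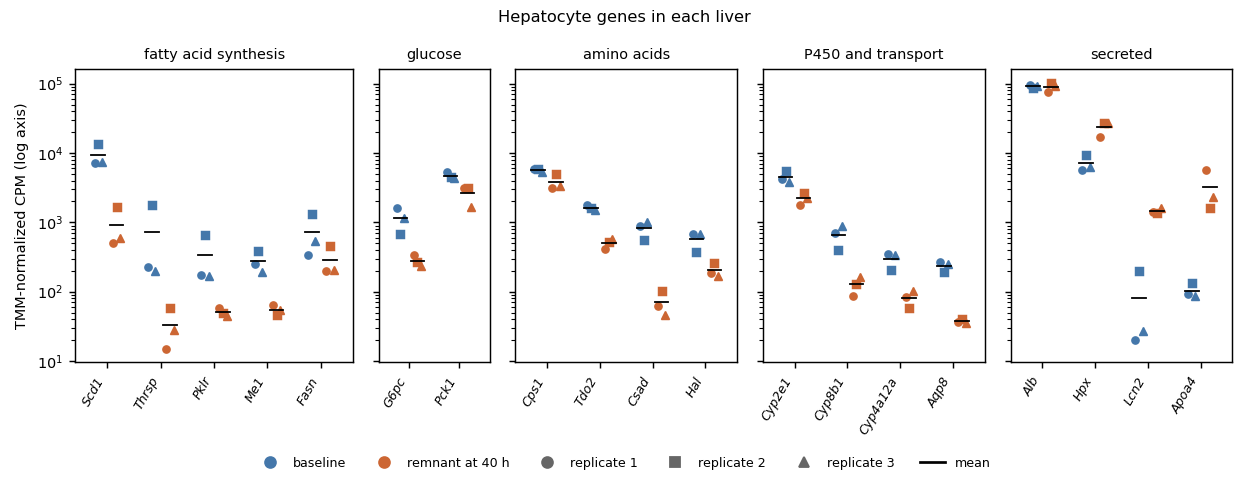
The y axis gives the TMM-normalized CPM (log axis) of 19 hepatocyte genes in each of the 3 baselines (blue) and 3 remnants (orange), with a marker shape for each replicate number and black bars for means. *Scd1*, *G6pc*, *Csad* and *Aqp8* lie lower in every remnant, *Hpx*, *Lcn2* and *Apoa4* higher, and *Alb* overlaps.

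General protein and energy machinery changed in small steps. None of 62 cytosolic ribosomal protein genes rose or fell by edgeR's test (1 was higher at an adjusted p under 0.05, median log2 fold change 0.10). Of 50 ribosome biogenesis genes 12 were higher at an adjusted p under 0.05 (median 0.31), none past the fold threshold, and the values of the nucleolin gene *Ncl* overlapped between the groups. Nuclear-encoded respiratory chain genes had 51 of 53 negative log2 fold changes and a median of -0.40, with 12 lower at an adjusted p under 0.05. Proteasome genes had a median of -0.15 and 1 lower gene of 37. Of the chaperones, 16 of 32 were higher at an adjusted p under 0.05, with *Creld2*, an endoplasmic reticulum stress gene, at 35.2, 24.8 and 50.3 CPM at baseline and 138, 96.6 and 266 CPM in the remnants and *Hspa5*, that of the chaperone BiP, at a log2 fold change of 1.12. *Creld2* was the only gene of the list to pass both thresholds, whereas the number was 2 without remnant replicate 1, 4 without baseline replicate 3 and 5 without remnant replicate 2.

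Genes of the integrated stress response moved in both directions. Of 32 tested genes 8 rose and 2 fell (1 without remnant replicates 1 or 3). *Aldh18a1* and *Slc1a4*, which serve proline synthesis and the transport of neutral amino acids, rose by 2.81 and 2.79. *Slc1a4* was between 3.54 and 6.14 CPM at baseline and between 33.9 and 36.4 CPM in the remnants. *Asns*, the gene of asparagine synthetase, was at 1.67, 11.5 and 12.7 CPM and 33.9, 51.1 and 30.3 CPM (log2 fold change 2.15, adjusted p = 0.0531), and baseline replicate 1 was far lower than the other baselines. *Ddit4*, which encodes an mTORC1 inhibitor, fell by 2.59, and the other faller was *Vldlr*, whose adjusted p of 0.0247 was 0.0638 to 0.0845 without baseline replicates 1 or 3 or remnant replicates 1, 2 or 3. Among NRF2 targets *Hmox1* (heme oxygenase), *Osgin1* and *Gpx3* (a secreted glutathione peroxidase) rose by 1.51, 1.51 and 2.07, *Me1* fell, and the list median over 23 genes was -0.01. Without baseline replicate 2, 1 NRF2 target rose, and 2 without baseline replicate 2 or remnant replicates 1 or 2 fell.

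Clock genes set baseline replicate 2 apart. *Arntl*, which encodes the core activator BMAL1, was at 33.8, 1.65 and 35.5 CPM at baseline and 27.4, 27.7 and 24.7 CPM in the remnants. *Dbp*, the gene of a clock output factor that runs opposite to *Arntl* over the day, was at 0.411, 81.01 and 1.29 CPM at baseline and 0.976, 1.09 and 0.554 CPM in the remnants. Replicate 2 was thus low in *Arntl* and high in *Dbp*, while the other baselines and all remnants lay together. The log2 fold change of *Dbp* was -4.95 (adjusted p = 0.103) with all livers and 0.06 without that library. *Ciart*, a repressor gene of the loop, was at 1.93, 30.6 and 0.66 CPM and 0.2, 0.674 and 0.185 CPM.

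Of 25 clock genes, 4 fell: *Nr1d1* and *Nr1d2*, which encode the REV-ERB repressors, *Cry2*, a cryptochrome gene, and *Tef*, an output factor gene named after its values were seen. The number that fell was 0 without baseline replicate 2, 1 without remnant replicate 1 and 2 without baseline replicate 1 or remnant replicates 2 or 3. *Nr1d1* was at 62.1, 62.3 and 30.9 CPM at baseline and 8.33, 16.7 and 3.21 CPM in the remnants (log2 fold change -2.45, adjusted p = 0.0325, and 0.0859 to 0.114 without baseline replicates 1 or 2 or remnant replicate 1). *Nr1d2* had an adjusted p of 0.0503 to 0.123 without baseline replicates 1 or 2 or remnant replicates 1, 2 or 3. *Cry2* was at 31.5, 57.9 and 30.8 CPM at baseline and 12.5, 14.6 and 12 CPM in the remnants (log2 fold change -1.62, standard error 0.24, adjusted p = 0.000869), and its adjusted p stayed under 0.05 with any liver left out, while its log2 fold change was -1.26 without baseline replicate 2. *Per1*, a period gene, had a log2 fold change of -1.01 (adjusted p = 0.0686). According to the methods, surgery was done in small cohorts so that its time within the day was uniform. The time of day at sampling is not given in the labels, and its part in these values was not tested.

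The E-box letters to which the clock activators bind (CACGTG, the same on both strands) were in 9.97% of all promoters and in 6 of 20 (30%) of those of the clock list. In the shorter window these shares were 7.71% and 3 of 20 (15%). The sterol synthesis list, which held no called gene, had the letters in 4 of 20 promoters (20%) in both windows. The promoter of *Tef* is shown as the called clock gene with the smallest adjusted p among those whose promoter holds them (chr15:81802423-81802722, plus strand, capitals marking the E-box, GRCm38.p6, the first of 2 RefSeq entries).
Tef: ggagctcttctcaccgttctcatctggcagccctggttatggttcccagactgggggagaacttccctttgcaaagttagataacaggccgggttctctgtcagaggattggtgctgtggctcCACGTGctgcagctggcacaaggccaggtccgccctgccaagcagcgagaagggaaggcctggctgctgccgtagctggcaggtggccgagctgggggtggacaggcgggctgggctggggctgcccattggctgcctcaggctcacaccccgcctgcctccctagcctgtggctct
*Tef* was at 48.1, 261 and 48.3 CPM at baseline and 21.9, 30.4 and 19.9 CPM in the remnants (log2 fold change -2.31, adjusted p = 0.0464), with baseline replicate 2 far above the other baselines.

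**Figure D5:**
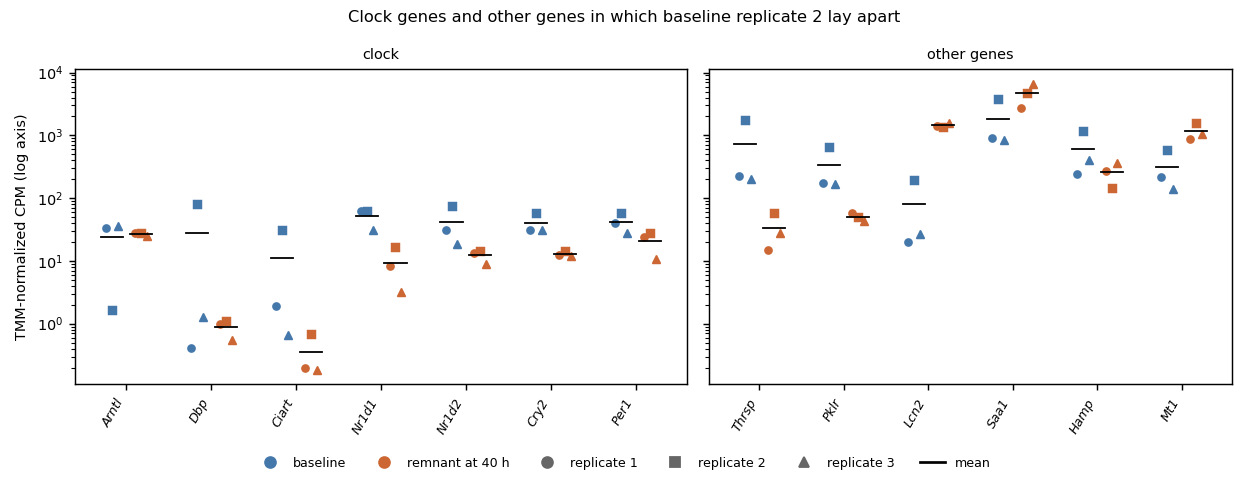
The y axis gives the TMM-normalized CPM (log axis) of 7 clock genes and 6 other genes in each of the 3 baselines (blue) and 3 remnants (orange), with a marker shape for each replicate number (squares for replicate 2) and black bars for means. In baseline replicate 2 *Dbp* stands at 81.0 CPM and *Arntl* at 1.65 CPM, away from all other livers, and it is the highest baseline for *Thrsp*, *Pklr*, *Lcn2*, *Saa1*, *Hamp* and *Mt1*.

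Zonal genes moved unequally. Periportal genes, expressed where blood enters the lobule, had 11 of 25 lower at an adjusted p under 0.05 and a median of -0.65. *Etnppl*, which encodes an ethanolamine phosphate lyase, was at 489, 155 and 389 CPM at baseline and 21.8, 29.2 and 37.1 CPM in the remnants (log2 fold change -3.55, standard error 0.688, adjusted p = 0.00949). *Cyp2f2*, the usual periportal marker gene, was at 1237, 997 and 1176 CPM and 410.2, 511 and 351 CPM, a log2 fold change of -1.42 just under the threshold (adjusted p = 0.000798). Pericentral and Wnt target genes had a median of 0.26, and *Axin2*, the feedback gene of Wnt signaling, was at 1.49, 4.18 and 2.08 CPM at baseline and 8.81, 8.32 and 6.61 CPM in the remnants (log2 fold change 1.61, standard error 0.352, adjusted p = 0.0067). *Tcf7*, the gene of a Wnt effector, rose by 1.51. The pericentral list had 3 rising genes of 34, *Slc1a4* included, and the number was 1 without baseline replicate 1. Of its genes, 14 had a negative log2 fold change, and 8 were higher and 2 lower at an adjusted p under 0.05. *Cyp2e1*, described above, was among the lower ones. The list took 1.34% ± 0.0822 of all counts at baseline and 1.02% ± 0.108 in the remnants (SD, n = 3 each). The periportal list took 11.6% ± 0.488 and 10.6% ± 0.532. Most of that share was *Alb*, a member of the list with a log2 fold change of -0.02, so the other periportal genes weigh little in it. The periportal list had 3 falling (*Etnppl*, *Hal* and *Sds*) and *Apoa4* rising, and the number falling was 1 without baseline replicate 1 or remnant replicates 1 or 3 and 5 without remnant replicate 2.

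Hepatocyte transcription factor genes had a median of -0.08 over 37 genes. At an adjusted p under 0.05, 4 were higher and 10 lower, against 12.7% and 11% of all tested genes. *Cebpa*, which encodes a factor that restrains hepatocyte division, was at 209, 221 and 233 CPM at baseline and 55.9, 76.03 and 94.9 CPM in the remnants (log2 fold change -1.55, standard error 0.223, adjusted p = 0.000687). The other gene to fall was *Rxrg*, a retinoid receptor gene, by 1.85, and the number falling was 1 without remnant replicate 1. Fetal liver genes had 6 of 22 rising. *Afp*, the gene of the fetal plasma protein alpha-fetoprotein, was at 0.379, 1.41 and 0.528 CPM at baseline and 7.16, 5.57 and 3.84 CPM in the remnants (log2 fold change 2.83, standard error 0.454, adjusted p = 0.00137), and *Anxa2*, an annexin gene, rose by 1.96. The imprinted *H19* overlapped between the groups at 2.28, 0.415 and 0.295 CPM in the remnants, where replicate 1 was far higher.

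Sex-biased liver genes follow the pulses of growth hormone. Of 33 male-biased genes 5 fell, none rose, and the median log2 fold change was -1.10. *Mup3*, a major urinary protein gene with close paralogs, was at 8472, 5692 and 5160 CPM at baseline and 1399, 2408 and 2782 CPM in the remnants (log2 fold change -1.55, standard error 0.317, adjusted p = 0.00489), and *Slc15a5* fell by 2.16, the others being *Ugt2b1*, *Cyp4a12a* and *Mup21*. The count of falling male-biased genes was 3 without baseline replicate 1. Female-biased genes had a median of -0.12 over 34, with 1 rising, the proton pump gene *Atp6v0d2* at 1.9, 3.7 and 1.42 CPM at baseline and 10.4, 27.4 and 23.5 CPM in the remnants, and 3 falling (*Hamp2*, *Cyp2a4* and *Slc22a29*), a number that was 1 without baseline replicate 3 or remnant replicate 1. Some sex-biased genes differed widely between the remnants. *Moxd1*, of the male-biased list and named after its values were seen, was at 0.35, 18.2 and 0.369 CPM in the remnants, with 1 read at most in any baseline, and *Cux2*, chosen likewise and the gene of a female-biased repressor, was at 0.348, 0.58 and 0.297 CPM and 5.38, 10 and 0.775 CPM. Neither passed the test (adjusted p = 0.128 and 0.144).

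Matrix genes rose in part. Of 51 collagen and matrix genes 20 rose and 1 fell, with a median of 1.30. *Col1a1*, the gene of the main fibrillar collagen chain, was at 1.33, 5.96 and 3.99 CPM at baseline and 55.2, 54.1 and 26.5 CPM in the remnants (log2 fold change 3.59, standard error 0.718, adjusted p = 0.011). *Timp1*, which encodes an inhibitor of matrix metalloproteinases, was at 0.0948, 0.153 and 0.132 CPM and 7.16, 6.19 and 5.98 CPM. The basement membrane genes *Col4a1* and *Nid1* rose by 1.78 and 2.11, the collagen chaperone gene *Serpinh1* by 2.23, the crosslinking enzyme gene *Loxl2* by 1.82 and the proteoglycan gene *Lum* by 1.92. *Col5a3* was the only one to fall, by 1.66, and it did not pass both thresholds without baseline replicate 3 or remnant replicate 3.

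Markers of the nonparenchymal cells were read beside these groups. Of 14 tested stellate cell and myofibroblast markers, 5 were higher at an adjusted p under 0.05 and 1 rose, *Acta2*, the smooth muscle actin gene of activated cells, by 2.36 (adjusted p = 0.0377, and 0.0526 to 0.122 without baseline replicates 1, 2 or 3 or remnant replicates 1, 2 or 3). The summed level of the list was 354 to 391 CPM at baseline and 393 to 455 CPM in the remnants. The retinoid storage gene *Lrat*, a marker of quiescent stellate cells, had a log2 fold change of -0.14 with overlapping groups. Endothelial markers summed to 445 to 481 CPM and 323 to 468 CPM, and of 18 only *Cd34* rose (log2 fold change 1.58), and the number was 0 without baseline replicate 3 or remnant replicate 1. *Stab2*, a sinusoidal scavenger receptor gene, had a log2 fold change of -0.31.

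Cholangiocyte markers summed to 61.4 to 65.9 CPM at baseline and 93.5 to 139 CPM in the remnants. The biliary keratin genes *Krt7* and *Krt19* rose, *Krt7* from 0.6, 0.458 and 0.759 CPM to 4.28, 3.71 and 4.43 CPM (log2 fold change 2.77) and *Krt19* by 2.07. Of 10 tested markers, 5 were higher at an adjusted p under 0.05 and 5 had a negative log2 fold change, with a median of 0.50.

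Macrophage markers were uneven. Of 13 Kupffer cell and macrophage markers *Marco*, the gene of a scavenger receptor, alone rose, from 2.62, 5.07 and 3.73 CPM to 52.7, 49.8 and 17.02 CPM (log2 fold change 3.39, standard error 0.586, adjusted p = 0.00561). The resident marker *Clec4f* was at 89.97, 56.2 and 62.7 CPM and 44.97, 60.7 and 37.5 CPM, with overlap, and the summed level of the list was 309.9 to 396 CPM and 320.1 to 542 CPM. Of 12 monocyte and recruited macrophage markers, *Chil3*, *Trem2* and *Cx3cr1* rose, by 4.85, 2.12 and 2.12. All 3 stayed under 4 CPM in every liver, and the adjusted p of *Trem2* was 0.0538 to 0.0588 without baseline replicates 1 or 3. The summed level of that list was 1598 to 1842 CPM at baseline and 2066 to 3339 CPM in the remnants. It includes *Fn1* and *Spp1*, which also belong to the matrix and cholangiocyte lists, so the sum is not specific to these cells. The part of these cells in the matrix and acute phase values was not tested.

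Blood and lymphoid cell markers were low. Of 13 neutrophil markers 8 passed the filter, their sum was 4.24 to 12.9 CPM at baseline and 11.3 to 24.8 CPM in the remnants, and *Retnlg* and *Mmp8* rose. Rising neutrophil markers numbered 1 without baseline replicates 2 or 3 or remnant replicates 1 or 2 and 4 without baseline replicate 1. *Camp*, *Ltf* and *Mpo* were at 3 reads or fewer in all 6 libraries. Lymphocyte markers summed to 21.5 to 28.9 CPM and 3.36 to 14.4 CPM, the remnants lying lower in each liver. All 9 tested lymphocyte markers had negative log2 fold changes, and 2 fell, among them the T cell marker *Cd3g*, by 2.46. Falling lymphocyte markers numbered 0 without baseline replicates 1 or 3 or remnant replicate 3, 1 without remnant replicate 1 and 7 without baseline replicate 2 or remnant replicate 2. Red cell precursor genes summed to 228 to 328 CPM and 106 to 186 CPM. *Alas2*, the erythroid gene of heme synthesis, fell by 1.83 and the erythroid factor gene *Klf1* by 2.17, while the globin gene *Hbb-bs* had a log2 fold change of -0.25. *Gata1* was at 3 reads or fewer in all 6 libraries. Falling red cell genes numbered 1 without baseline replicate 2 or remnant replicates 1 or 3. Interferon response genes showed a median of -0.14 over 38, and the chemokine gene *Cxcl10* was the only one to rise, by 1.98.

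Further genes with large falls were named by the rule for the largest changes or as members of a list. *Car3*, which encodes carbonic anhydrase 3, an abundant male-biased liver enzyme, was at 4086, 2186 and 3435 CPM at baseline and 87.9, 241 and 229 CPM in the remnants (log2 fold change -4.12, standard error 0.754, adjusted p = 0.0071). *Aqp8*, the gene of a water channel and the only one of 5 tested aquaporins to fall with all livers (2 without remnant replicate 1), was at 267, 192 and 247 CPM at baseline and 36.99, 39.8 and 35.7 CPM in the remnants, and its remnants lay within a narrow band. *Slc13a2*, the gene of a dicarboxylate transporter, fell by 4.72, the desaturase gene *Scd3* by 3.77, and the C-type lectin gene *Clec2h* by 5.15 on the log2 scale. The adjusted p of *Clec2h* was 0.0222, and 0.0529 to 0.0873 without baseline replicates 1, 2 or 3 or remnant replicates 1, 2 or 3. *Gm4956*, a predicted gene, had the largest fall of those at 5 CPM or more, from 29.4, 11.5 and 24.7 CPM to 0.35, 0.389 and 0.406 CPM (log2 fold change -5.83). *Gm13775* and the pseudogene *Mup-ps16*, which resembles the *Mup* genes, fell by 4.17 and 4.17.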

How the data were processed

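RNA from 3 resection specimens (0 h) and 3 remnants (40 h) of vehicle-treated mice, and 3 remnants of NSC-treated mice, was sequenced as stranded, polyadenylated libraries. The authors ran the MAP-RSeq pipeline, and the submitters' processing notes name STAR 2.6.1, Subread 1.5.1 and featureCounts. The authors deposited raw counts per gene and FPKM values for each library in 1 table of 43346 genes. The deposited FPKM values followed from the counts and gene lengths (largest relative difference 4.97e-10), so only the counts were tested. The sources name the human build hg38, whereas the table holds mouse identifiers, 42462 of them in GENCODE M21, and 33460 of these (78.8%) have identical coordinates there. All 37 mitochondrial genes are at 0, so mitochondrially encoded transcripts are not described. No per-sample column was left unused for lack of a label.

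Counts were scaled by TMM and fitted in edgeR 4.0.16 (R 4.3.3, limma 3.58.1) with the robust quasi-likelihood model over all 9 libraries after filterByExpr, and 15024 genes were tested for remnant against baseline in vehicle-treated mice. The NSC libraries entered the filter, the scaling and the estimate of spread, but not the comparison itself. p-values were adjusted by Benjamini-Hochberg over all genes tested. The study describes the libraries of a group as biological replicates. The fit was tested on simulated counts of this comparison. With 200 genes altered 4-fold among 14816 tested it called 167 of them and 1 unaltered gene, and with an 8-fold alteration among 14792 tested it called 184 of 200 and 2 unaltered genes. With no gene changed, 1 of 14808 was called.

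The 53 gene lists and the genes named were chosen with earlier results of these data known. Named were 78 genes set beforehand by role, the 10 rising and 10 falling genes with the largest change among those without overlap and with a mean of at least 5 CPM in the higher group, and up to 3 called members of a list in each direction (5 for lists with more than 15 called members). Some of these are not described. Promoters were RefSeq sequences of GRCm38.p6, matched by symbol for 10314 of 15024 genes (68.7%). Alternatives were other scaling, filters, thresholds and tests (DESeq2 1.42.0 among them), a GC correction, a replicate block and leaving out each library. The GC correction joined with the block was added after seeing the data.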

Additional observations from a re-analysis of the deposited data

Results flagged for a closer look

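The study already names *Egr2* among the genes lowered by NSC at 40 h. Here *Egr2* was singled out because its change from baseline to 40 h differed between treatments in a direct test of NSC against vehicle remnants. It was at 0.0632, 0 and 0.165 CPM in the baselines, at 4.43, 4.67 and 3.54 CPM in the vehicle remnants and at 0.51, 0.34 and 0.391 CPM in the NSC remnants. The change with NSC minus the change with vehicle was -3.33 on the log2 scale (edgeR quasi-likelihood test, adjusted p = 0.047). Both changes are measured from the same 3 baselines, every NSC remnant lay below every vehicle remnant, and the cause was not tested. Groups of 3 livers were too small for a test of single outlying samples.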

How the results depend on the processing

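Against 1085 genes called, 756 genes that rose and 329 genes that fell, 3 settings moved a count by over 1.5 times. Requiring at least 10 counts in every library gave 596 called, 391 rising and 205 falling. A log2 fold change threshold of 1 gave 1860, 1142 and 718. An adjusted p threshold of 0.01 gave 206 falling genes. Leaving out 1 library gave 892 to 1071 called, 616 to 743 rising and 255 to 346 falling genes, and 2285 to 2891 genes with an adjusted p under 0.05 against 3564. The lowest of these came without baseline replicate 3 (2285), baseline replicate 1 (2329) and remnant replicate 1 (2367), each with fewer samples in the fit. Other scaling, tests, the fit of 6 libraries and the GC correction kept the count called between 1080 and 1251. DESeq2 called 1251. The log2 fold change correlated with GC content across genes at a Spearman rho of -0.125, and of 0.0095 after the correction (genes are not independent replicates).

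For the genes called, the replicate block gave 1079 with 9 libraries and 1154 with 6, and 1063 with the GC correction added. Deviations of samples with the same number correlated at 0.0807, 0.0698 and -0.0479, against -0.115 to 0.0659 for different numbers, so the numbers were not taken to pair the samples.

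No named gene that passed the test with all libraries or under an alternative had its sign turned by that alternative. Signs turned 35 times among named genes that did not pass, such as *Dbp* (-4.95 against 0.06 without baseline replicate 2), *Arntl* (0.17 against -0.38 without baseline replicate 2) and *Jun* (-0.23 against 0.21 without baseline replicate 1). They also turned for list medians near 0, such as glycolysis (-0.10 against 0.03) and female-biased genes (-0.12 against 0.12), both without baseline replicate 1. Of the counts per list 184 moved and 1618 did not, and of the list medians 48 and 853. Of the single gene results 177 lost an adjusted p under 0.05, 67 gained one, 35 turned sign and 3558 did none of these. These single gene counts did not use the fold change threshold. A call lost by that threshold alone, as for *Cry2* without baseline replicate 2 (log2 fold change -1.26), is not among the 177. The depth sets the limit for genes near 3 reads per library, where fold changes depend on the fit.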

Other observations

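Of the called genes, 515 rising and 267 falling ones belonged to no list described here. Among the falling ones 198 were protein coding, 21 were lincRNA genes and 16 antisense genes.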
